A study of Mus musculus with 22 samples.

Results

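Ribosome biogenesis genes encode the nucleolar proteins that transcribe ribosomal RNA, modify and cut it, and assemble it into the small and large ribosomal subunits. A set of 31 such genes was followed here in lymphomas of mice with p53 deleted in the B lineage, with or without extra cyclin D2. The members were taken by gene symbol from a list drawn up for their function, with earlier results of these data known. All 31 were found among the 52636 genes of the deposited count table. All 31 also passed the low-count filter in each comparison below.

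Tags from the 3' ends of transcripts were counted in 22 libraries, made from lymphomas of 15 mice of a mixed 129/C57Bl6 background. The MCL-like tumours (6 transplant libraries from 4 mice and 4 primary libraries from 4 mice) had the genotype R26-Ccnd2tg/tg;p53fl/fl;Mb1Cretg/+ and an immunophenotype the submitters call MCL-like, after mantle cell lymphoma. The Ccnd2 non-MCL tumours (2 transplant libraries from 1 mouse and 3 primary libraries from 3 mice) shared that genotype and were labelled non-MCL. The p53-only primaries (7 libraries from 6 mice) were p53fl/fl;Mb1Cretg/+ without the cyclin D2 transgene and were also labelled non-MCL. Floxed p53 and Mb1Cre were therefore common to every group, and the labels give no age and no tumour-free control. Mb1 (Cd79a) is switched on early in the B lineage, so Cre acts in B cells and not in other cells of the tumour mass. Transplants grew in NSG mice, which lack T, B and NK cells of their own and keep their myeloid and red cells, and all were taken from the spleen. Titles of the 6 MCL-like transplants read non-MCL but their immunophenotype entry reads MCL-like, and the entry was followed. The column of Ccnd2 non-MCL replicate 3 is named oTP14 where the title has oTP14b. p53-only replicates 2 and 5 came from the same mouse, as did MCL-like transplant replicates 1 and 2, replicates 3 and 4, and both Ccnd2 non-MCL transplants. The mouse was the unit of replication, and libraries of a mouse were summed except where stated.

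Library totals were 3050785 to 5825652 counts in MCL-like transplants, 3159419 to 4739716 in MCL-like primaries, 3780128 and 3934589 in Ccnd2 non-MCL transplants, 2693399 to 8146613 in Ccnd2 non-MCL primaries and 2936387 to 6057077 in p53-only primaries. Among B cell markers, Pax5 ran from 73 to 1029 CPM (a gene's counts as a share of the library total) over the 22 libraries, while the 10 T cell markers summed to at most 535 CPM in any library. Cd79a itself was low, at 4.32 to 55.9 CPM. The 11 erythroid markers, mostly haemoglobin genes, summed to 23641 to 111581 CPM in MCL-like primaries, against 249 to 39050 CPM in p53-only primaries, and reached 119835 CPM in MCL-like transplant replicate 1. These are bulk samples, so fewer tumour cells and less RNA of a gene per tumour cell cannot be told apart. In 5 libraries the tumour name starts with oTP (Ccnd2 non-MCL replicate 3 and p53-only replicates 4, 5, 6 and 7), a prefix the labels do not explain. All 3 other p53-only libraries were spleens and none of the 4 oTP ones was labelled as spleen, so within that group the prefix and the site cannot be told apart.

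Ribosome production starts in the nucleolus, where RNA polymerase I transcribes a long precursor of ribosomal RNA. Small nucleolar RNPs of the box C/D class methylate this precursor and those of the box H/ACA class convert uridines to pseudouridine, while processing complexes cut it and load ribosomal proteins. Myc and its relatives Mycn and Mycl are transcription factors that pair with Max, bind the sequence CACGTG and are known for raising many of these genes in growing lymphocytes and in lymphomas.

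Because the members were to be read against Myc, the promoter windows of those with a CACGTG are shown. RefSeq windows (GRCm38.p6) of 300 bases, from 250 before to 50 after an annotated start, were at hand for 26 of the 31 members. CACGTG, which reads the same on both strands, occurred in a window of 4 of these 26 members, Pes1, Utp20, Mybbp1a and Wdr43, against 8.09% of the 27025 genes in the table. Its first base lay at position 3, 38, 41 and 18 after the start of Pes1, Utp20, Mybbp1a and Wdr43, where 1 is the first transcribed base. The windows are chr11:3963725-3964024 (plus strand) for Pes1, chr10:88826765-88827064 (minus) for Utp20, chr11:72441077-72441376 (plus) for Mybbp1a and chr17:71615965-71616264 (plus) for Wdr43. Nip7 (chr8:107056627-107056926, plus) and Nhp2 (chr11:51619523-51619822, plus), whose slopes on Myc are given further on, are shown beside them because their windows hold no CACGTG. Capitals mark the motif, and sequences read 5′ to 3′ on the gene's strand.
Pes1: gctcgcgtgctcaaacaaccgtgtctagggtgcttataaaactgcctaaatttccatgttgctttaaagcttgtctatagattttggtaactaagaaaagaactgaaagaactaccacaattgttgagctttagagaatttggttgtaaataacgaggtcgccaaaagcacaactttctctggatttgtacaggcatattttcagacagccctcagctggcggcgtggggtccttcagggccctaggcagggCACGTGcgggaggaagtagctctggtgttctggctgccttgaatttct
Utp20: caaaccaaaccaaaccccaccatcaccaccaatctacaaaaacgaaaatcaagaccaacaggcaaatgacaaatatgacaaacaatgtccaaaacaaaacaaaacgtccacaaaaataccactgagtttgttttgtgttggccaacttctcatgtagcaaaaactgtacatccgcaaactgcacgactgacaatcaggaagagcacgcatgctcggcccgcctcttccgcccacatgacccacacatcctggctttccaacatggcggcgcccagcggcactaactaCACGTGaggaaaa
Mybbp1a: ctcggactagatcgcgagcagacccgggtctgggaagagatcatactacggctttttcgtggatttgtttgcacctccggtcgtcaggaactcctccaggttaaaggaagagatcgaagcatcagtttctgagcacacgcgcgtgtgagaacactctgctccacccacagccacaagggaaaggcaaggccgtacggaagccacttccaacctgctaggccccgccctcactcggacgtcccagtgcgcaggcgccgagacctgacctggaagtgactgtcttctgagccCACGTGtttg
Wdr43: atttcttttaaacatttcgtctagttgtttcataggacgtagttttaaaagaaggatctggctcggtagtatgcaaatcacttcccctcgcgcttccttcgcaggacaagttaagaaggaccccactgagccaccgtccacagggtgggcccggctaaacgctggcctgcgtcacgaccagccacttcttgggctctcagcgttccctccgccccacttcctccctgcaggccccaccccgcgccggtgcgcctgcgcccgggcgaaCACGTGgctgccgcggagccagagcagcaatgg
Nip7: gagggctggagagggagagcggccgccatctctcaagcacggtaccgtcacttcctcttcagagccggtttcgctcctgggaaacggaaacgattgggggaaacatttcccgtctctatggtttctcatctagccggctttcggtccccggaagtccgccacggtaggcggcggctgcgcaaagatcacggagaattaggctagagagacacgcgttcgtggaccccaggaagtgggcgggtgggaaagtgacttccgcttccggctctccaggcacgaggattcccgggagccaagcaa
Nhp2: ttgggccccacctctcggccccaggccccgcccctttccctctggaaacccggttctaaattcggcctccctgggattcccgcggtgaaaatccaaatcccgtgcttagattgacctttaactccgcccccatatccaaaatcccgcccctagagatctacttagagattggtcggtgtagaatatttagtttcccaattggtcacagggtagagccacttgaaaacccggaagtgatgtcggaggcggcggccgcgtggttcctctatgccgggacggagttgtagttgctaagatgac
A match describes the letters in the window and is not evidence of binding.

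The summed level of the 31 genes differed by a factor of 4.3 between the highest and the lowest library. It was 3658, 6263, 10477, 10656, 8939 and 8016 CPM in MCL-like transplant replicates 1 to 6, and 5497, 4912, 7272 and 5707 CPM in MCL-like primary replicates 1 to 4. Ccnd2 non-MCL tumours had 9442 and 10081 CPM as transplants and 6808, 5242 and 7148 CPM as primaries. The p53-only primaries spread most, with 15738, 12278, 12703, 5987, 9007, 8583 and 6012 CPM in replicates 1 to 7. The MCL-like primaries thus lay within a narrow low range, and the Ccnd2 non-MCL primaries all lay inside it too. The p53-only primaries reached from inside that range to the highest values of the series. Over mice, the sum averaged 5847 ± 1007 CPM in MCL-like primaries (SD, n = 4), 6399 ± 1017 CPM in Ccnd2 non-MCL primaries (n = 3) and 10039 ± 3891 CPM in p53-only primaries (n = 6). Leaving erythroid and immunoglobulin genes out of the library total gave 6319 ± 986, 6546 ± 969 and 10256 ± 4118 CPM in the same order of groups. No p-value is given for a sum over chosen genes.

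**Figure D1:**
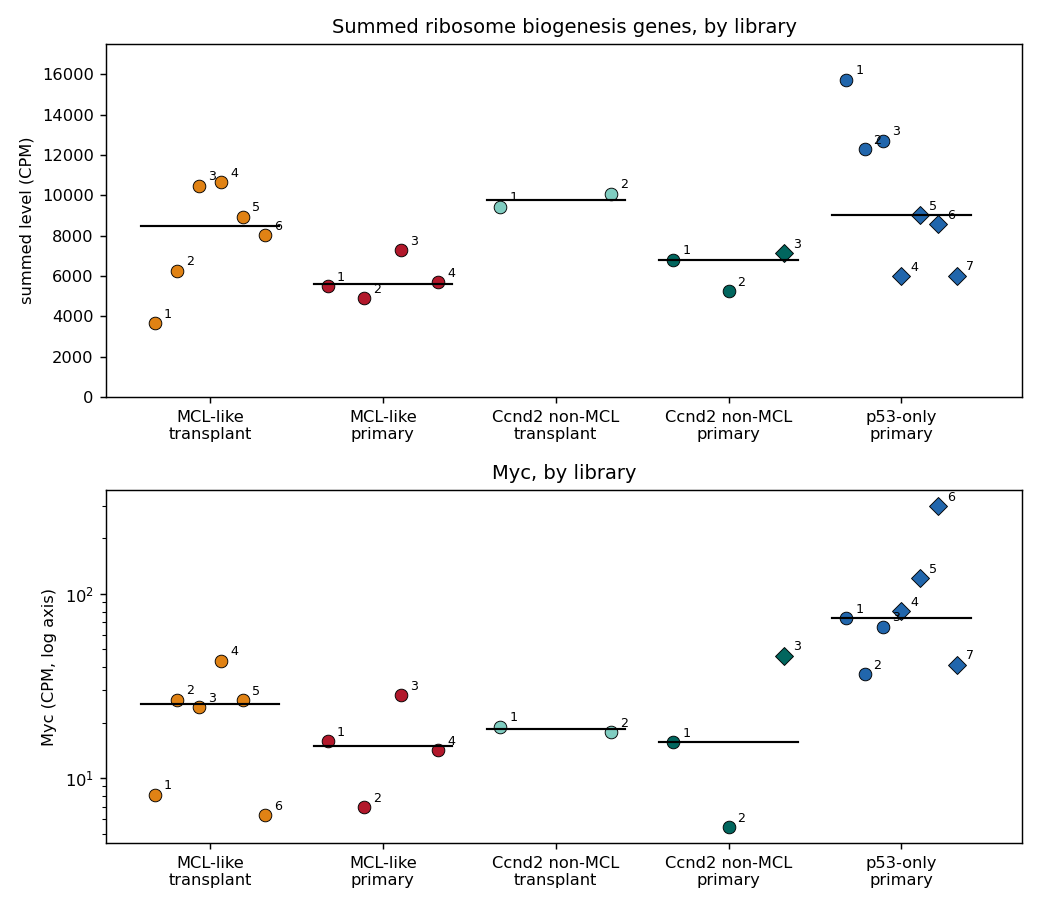
Summed level of the 31 genes (upper panel, CPM) and Myc (lower panel, CPM on a log axis) in each of 22 libraries, with replicate numbers, a line at the group median and diamonds for tumours named oTP. The 3 highest sums are p53-only replicates 1, 2 and 3, and the 5 highest Myc levels are p53-only replicates 1, 3, 4, 5 and 6.

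Of the Myc family, Myc alone was detected in every library. It measured 8.13, 26.6, 24.3, 43.3, 26.4 and 6.29 CPM in MCL-like transplants and 15.8, 6.96, 28.2 and 14.2 CPM in MCL-like primaries. In Ccnd2 non-MCL tumours it was at 19 and 17.8 CPM in transplants and at 15.6, 5.4 and 46.2 CPM in primaries. The p53-only primaries had 73.8, 36.5, 66.2, 80.8, 122, 299 and 41.3 CPM, so each of them was above every MCL-like primary. Mycn was at 0 in 13 of 22 libraries and at 4.83 CPM, 13 counts, in its highest, Ccnd2 non-MCL primary replicate 1. Mycl stayed at or below 0.892 CPM. A count of 0 allows up to 0.368 to 1.11 CPM, depending on the library and covering counting error only.

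Levels are not compared between genes, since CPM of 3' tags carries no correction for length or for how well each 3' end is captured. Among nucleolar scaffold and chaperone genes, Npm1, which encodes nucleophosmin, a chaperone of ribosomal and histone proteins, had 374 to 1057 CPM in MCL-like transplants and 621, 488, 1527 and 445 CPM in MCL-like primaries. Ccnd2 non-MCL primaries had 825, 373 and 1327 CPM of Npm1, and p53-only primaries had 1143 to 2975 CPM with a median of 2037. Ncl (nucleolin, an RNA-binding protein of the nucleolus) reached 882 to 4022 CPM in MCL-like transplants and stayed between 1022 and 1338 CPM in MCL-like primaries, while the p53-only range was 972 to 4296 CPM. The MCL-like primaries were thus close together in Ncl, and the transplants and the p53-only tumours were not. Nolc1 (Nopp140), a chaperone of small nucleolar RNPs, was at 122, 66, 124 and 106 CPM in MCL-like primaries and at 158 to 544 CPM in p53-only primaries.

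Genes of the RNA polymerase I group did not all share a highest library. Polr1a, the largest subunit of the enzyme, had its highest library in MCL-like primary replicate 4 at 235 CPM, and its partner Polr1b had its highest in p53-only replicate 1 at 50.2 CPM. Ddx21, an RNA helicase that acts with polymerase I, was at 456, 328, 856 and 394 CPM in MCL-like primaries, inside the p53-only range of 199 to 927 CPM. Mybbp1a, a nucleolar regulator of this transcription, ran from 104 to 207 CPM in MCL-like primaries and from 148 to 348 CPM in p53-only primaries.

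Among box C/D proteins, Fbl (fibrillarin, the methyltransferase) had 33.9, 36.5, 44.3 and 28.5 CPM in MCL-like primaries, 53.5, 49.2 and 83.7 CPM in Ccnd2 non-MCL primaries and 56.8 to 129 CPM, median 84.7, in p53-only primaries. Every MCL-like primary was below every other primary in Fbl as unscaled CPM. The core proteins Nop56 and Nop58 overlapped between these groups. In the box H/ACA class, Nhp2, a core protein, was at 89.8, 76.4, 104 and 57 CPM in MCL-like primaries, 89.5, 76.1 and 241 CPM in Ccnd2 non-MCL primaries and 153 to 223 CPM in p53-only primaries. Dkc1 (dyskerin, the pseudouridine synthase of the same particle) was at 397, 431, 591 and 563 CPM in MCL-like primaries and between 204 and 1326 CPM in p53-only primaries. Gar1 varied most in this class, by a factor of 11.6 over libraries, with its lowest value of 19.2 CPM in Ccnd2 non-MCL primary replicate 2.

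The small subunit group holds processome proteins (Wdr43, Rrp9, Utp20, Heatr1, Noc4l), the export factor Rrp12 and Nob1, the nuclease that trims 18S ribosomal RNA. Noc4l was at 32.7, 45.2, 32.3 and 53.7 CPM in MCL-like primaries, 81.3, 115 and 176 CPM in Ccnd2 non-MCL primaries and 67.1 to 117 CPM, median 91.7, in p53-only primaries. No MCL-like primary reached any other primary in Noc4l. Noc4l ranged from 29.9 to 58.3 CPM over the MCL-like transplants. Both Ccnd2 non-MCL transplant libraries lay above that range, at 61.6 and 68.4 CPM. Those libraries share 1 mouse, so no test is possible, and no share of all genes is given here. Of the 4 mice behind the MCL-like transplants, 3 also gave primaries listed above, so the transplants are not separate evidence. Nob1 had 39.5, 23.4, 27.9 and 32.8 CPM in MCL-like primaries and 24.1 to 82.2 CPM in p53-only primaries, with overlap.

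Among large subunit genes, the members of the PeBoW complex, Pes1, Bop1 and Wdr12, varied over libraries by factors of 3.14, 2.75 and 3.93, and that of Bop1 was the smallest of the 31 genes. Rrs1, a factor of early large subunit assembly, had the widest, a factor of 14.9. It was at 50.8, 39, 41.5 and 29.6 CPM in MCL-like primaries and 60.9, 19.8 and 88.1 CPM in Ccnd2 non-MCL primaries. The p53-only primaries had 110, 111, 139, 175, 215, 294 and 164 CPM of Rrs1, all above every other primary. Nip7, which acts in the same pathway, was at 57.4, 51.1, 47.2 and 40.6 CPM in MCL-like primaries, 57.5, 25.8 and 98 CPM in Ccnd2 non-MCL primaries and 49.4 to 149 CPM in p53-only primaries. Gnl3 (nucleostemin), Noc2l, Nop16, Ppan and the methyltransferase Ftsj3 complete this group. Gnl3 and Noc2l were highest in p53-only replicate 1, at 683 and 389 CPM.

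**Figure D2:**
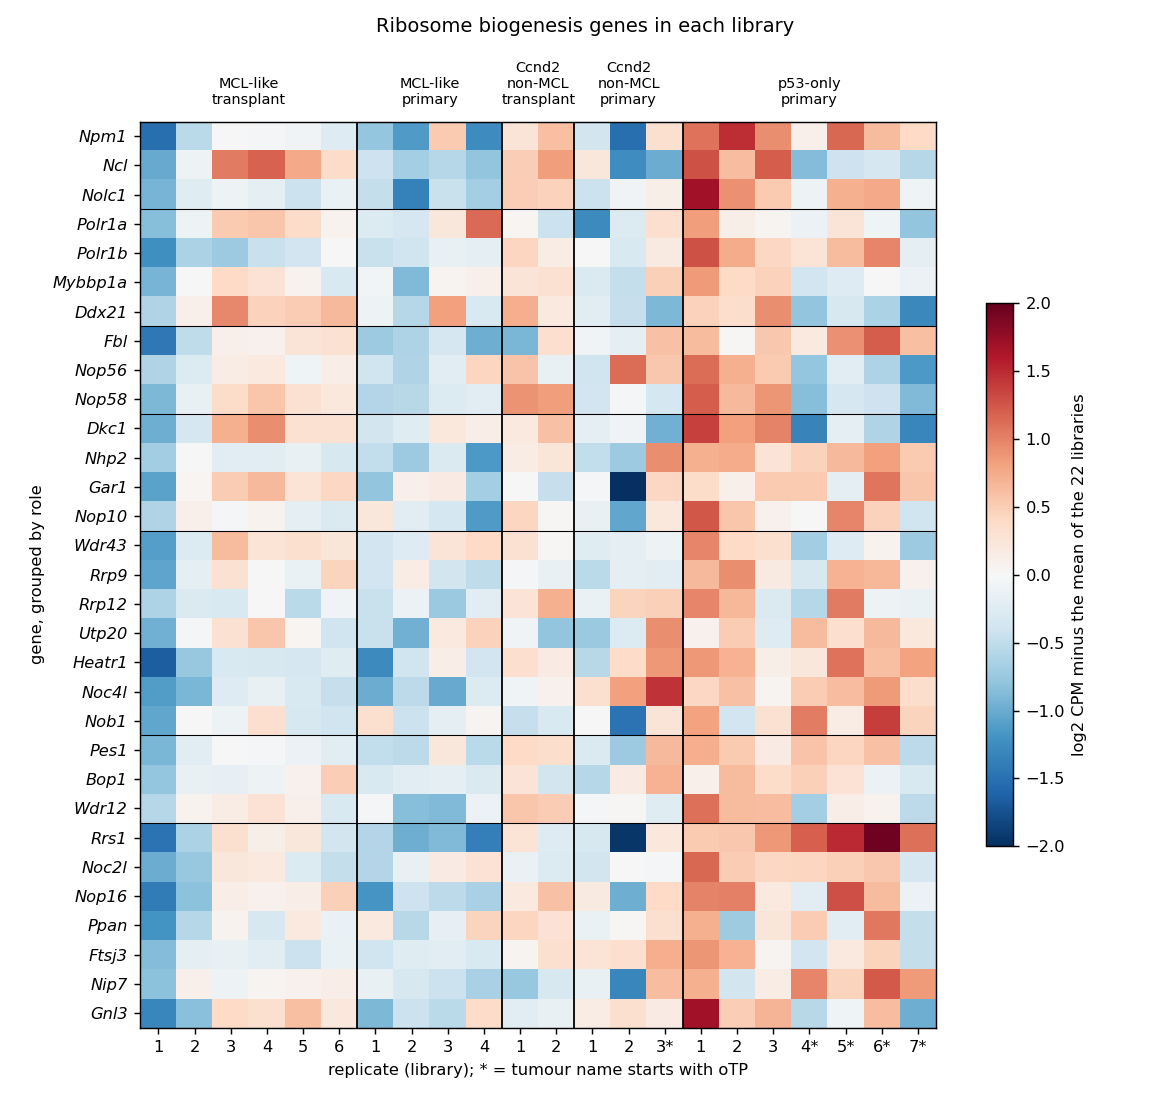
Level of each of the 31 genes in each of 22 libraries, as log2 CPM minus the gene's mean over the libraries, with genes in rows by role, libraries in columns and stars for tumours named oTP. MCL-like transplant replicate 1 is the lowest library for 15 genes and p53-only replicate 1 the highest for 14.

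Among the 14 primary libraries, the highest was a p53-only library for 26 of the 31 genes, a Ccnd2 non-MCL library for 4 and an MCL-like library for 1. Of the 3 primary groups, the p53-only mice had the highest mean for 25 genes and the MCL-like mice the lowest for 23. Folds and tests below come from the quasi-likelihood F test of edgeR on counts, fitted over 12967 genes in 13 primary mice after TMM scaling, which corrects library totals for a few very abundant genes, and a gene was called at a Benjamini-Hochberg adjusted p under 0.05.

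MCL-like primaries had lower Rrs1, Fbl and Noc4l than p53-only primaries, which differ from them in both genotype and immunophenotype. This contrast was added after the levels had been seen. These 3 of 31 genes were called lower and none higher, against 2.86% of all genes called lower and 2.95% called higher. Rrs1 (chromosome 1, 9545408 to 9547455, GRCm38) averaged 40.2 ± 8.75 CPM in MCL-like mice and 171 ± 64.3 CPM in p53-only mice (SD, n = 4 and 6), a log2 fold change of −1.97 (SE 0.41, edgeR adjusted p 0.0167). Fbl (chromosome 7, 28169710 to 28179269) averaged 35.8 ± 6.59 CPM in MCL-like mice and 86.5 ± 22.7 CPM in p53-only mice, at −1.18 (SE 0.28, edgeR adjusted p 0.0305). Noc4l (chromosome 5, 110648418 to 110653417) averaged 41 ± 10.4 CPM in MCL-like mice and 90.5 ± 16.6 CPM in p53-only mice, at −1.07 (SE 0.26, edgeR adjusted p 0.031). The groups did not overlap in these genes or in Nhp2 on TMM-scaled levels, 4 of 31 lower, against 5.32% of all genes, and none of the 31 was higher without overlap, against 5.14%. Nolc1 was next by p, at −1.37 (SE 0.39, edgeR adjusted p 0.0521). Myc itself was called lower, at −2.60 (SE 0.70, edgeR adjusted p 0.0447).

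Over the 31 genes, 29 had a negative estimate in this comparison and the median log2 fold change was −0.64, beside −0.11 for all genes. By role the medians were −1.20 for nucleolar scaffolds, −0.09 for RNA polymerase I and its regulators, −0.64 for box C/D, −0.66 for box H/ACA, −0.58 for the small subunit genes, −0.60 for PeBoW and −0.84 for the other large subunit genes. The exceptions in sign were Polr1a at 0.24 and Ddx21 at 0.12, neither called. Among 22 proliferation genes 3 were also called lower and none higher, against 2.86% and 2.95% of all genes, and 21 had negative estimates. Their summed level was 2776 to 4176 CPM in MCL-like and 4005 to 6820 CPM in p53-only primaries. Mki67 had a higher mean in MCL-like mice, at 427 ± 200 CPM against 313 ± 219 CPM in p53-only mice (SD). Of the erythroid markers, none at 0 in either group, all 11 had a positive estimate and none was called. Surrogate light chain genes had negative estimates for 4 of 4, with a median of −4.1, and Vpreb3 was called lower, and they summed to 37.8 to 311 CPM in MCL-like against 91.8 to 8139 CPM in p53-only primaries. General B cell markers had positive estimates for 7 of 10, with a median of 1.26, and Cd37 was called higher, and they summed to 5379 to 8988 CPM in MCL-like against 1983 to 5965 CPM in p53-only primaries. The part of these lists in the members' values was not tested. Without the oTP tumours none of the 31 genes was called, beside 65 of all 13013 genes higher and 51 lower. The log2 fold changes were then −1.5 for Rrs1, −1.0 for Fbl and −1.0 for Noc4l. With the prefix as a covariate Nolc1 and Ncl were called lower, beside 161 of all 13044 genes higher and 128 lower. Rrs1, Fbl and Noc4l were not called in that fit, at −1.48, −0.98 and −0.93 (edgeR adjusted p 0.0506, 0.0881 and 0.0696). That fit took p53-only replicates 2 and 5, of the same mouse, as separate libraries. Separating them without the covariate also called Nolc1, at −1.37 (edgeR adjusted p 0.0392), and not Ncl. With the covariate Nolc1 was at −1.62 (edgeR adjusted p 0.0372). The part of the covariate in these calls was not tested. Leaving out 1 mouse at a time left 0 to 4 genes called, with 0 without MCL-like replicate 3 or 4, Rrs1 alone without MCL-like replicate 1 or 2 or p53-only replicate 6 or 7, and Rrs1 and Fbl without p53-only replicate 4 or replicates 2 and 5. Whether reads of any member were shared with a pseudogene copy was not examined.

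**Figure D3:**
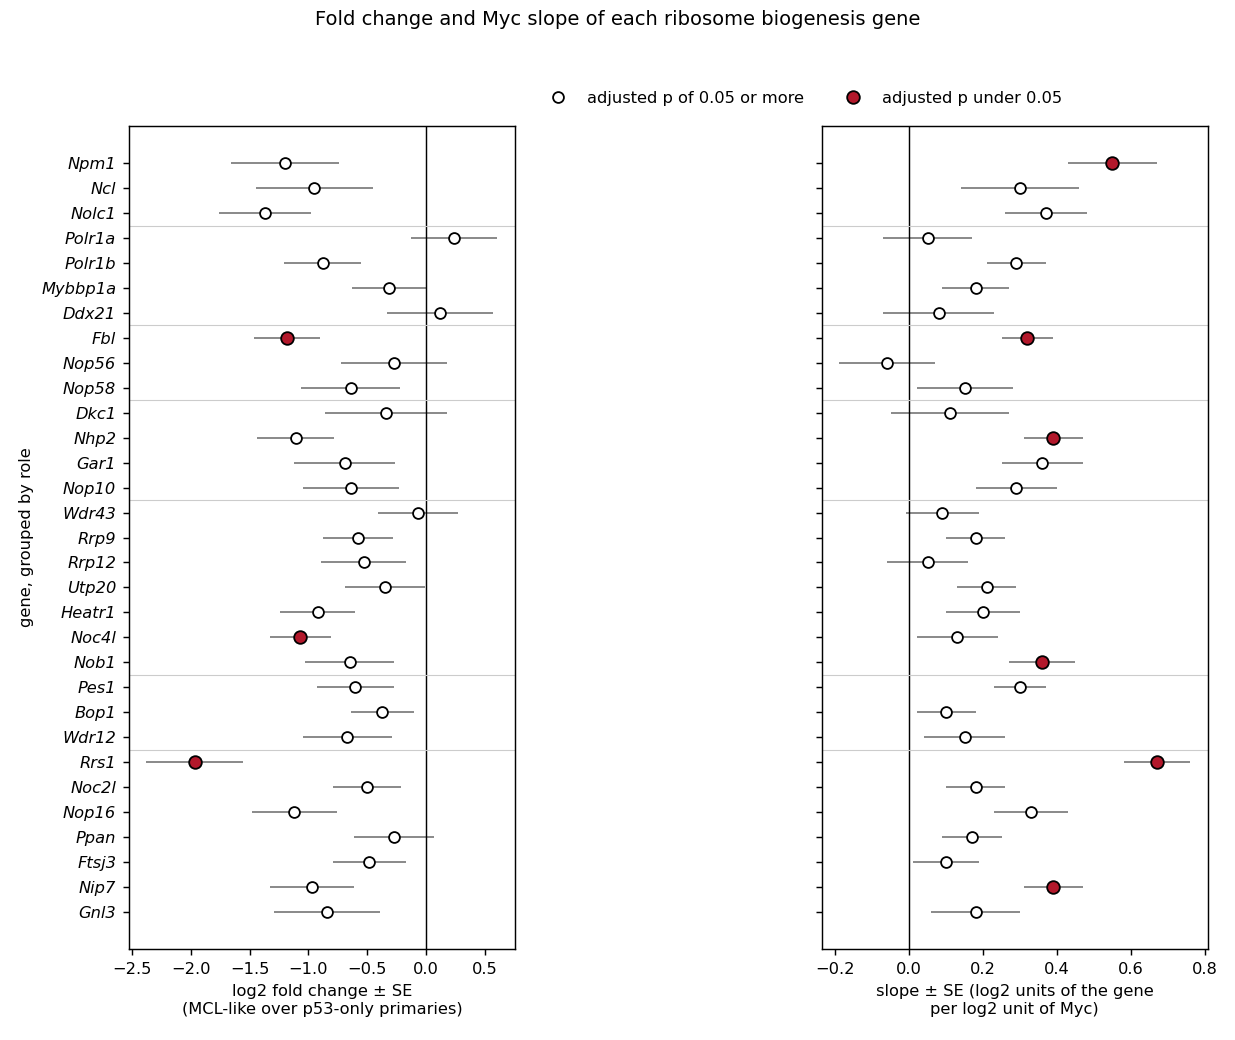
Log2 fold change of MCL-like over p53-only primaries (left, ± SE) and slope on Myc over 13 primary mice (right, ± SE, log2 units of the gene per log2 unit of Myc) for each of the 31 genes, by role. Filled points have an edgeR adjusted p under 0.05. Rrs1 lies farthest from 0 in both panels, at −1.97 and 0.67, and Fbl is the other gene filled in both.

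Between tumours of the same genotype the 31 genes showed no called difference. MCL-like and Ccnd2 non-MCL primaries differed in 0 of 31 genes by edgeR, against 0.0617% of all genes called higher and 0.247% called lower, and 1 of the 31 genes and 2175 of all genes had an unadjusted p under 0.05. That gene was Noc4l, at 41 ± 10.4 CPM in the MCL-like mice (SD, n = 4) against 124 ± 48 CPM in the Ccnd2 non-MCL mice (n = 3), with a log2 fold change of −1.47 (SE 0.30, edgeR adjusted p 0.0550). DESeq2 called Noc4l lower and no other of the 31, against 4.16% of all genes called lower and 2.28% called higher by that tool. Noc4l and Ftsj3 were lower without overlap, 2 of 31 against 8.46% of all genes, and Dkc1 higher without overlap, 1 of 31 against 7.82%. Estimates were positive for 13 genes, and the median was −0.13, beside −0.04 for all genes. Fbl at −0.65 (SE 0.32), Ftsj3 at −0.61 (SE 0.36) and Heatr1 at −0.61 (SE 0.36) had edgeR adjusted p of 0.330, 0.412 and 0.421.

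Ccnd2 non-MCL and p53-only primaries, both labelled non-MCL and differing in the cyclin D2 transgene, also gave 0 calls among the 31 genes by edgeR, with 0% of all genes called in either direction. Without the oTP tumours edgeR called 89 of all genes higher and 27 lower, and still none of the 31. Rrs1 had the lowest p, at 56.3 ± 34.4 CPM in the Ccnd2 non-MCL mice (SD, n = 3) against 171 ± 64.3 CPM in the p53-only mice (n = 6), a log2 fold change of −1.65 (SE 0.45, edgeR adjusted p 0.311). It was the only one of the 31 genes without overlap, and it was lower, against 1.77% of all genes lower and 1.74% higher without overlap. Unadjusted p was under 0.05 for 6 of the 31 genes and 1330 of all genes, and limma-voom called none of the 31. DESeq2 called Rrs1 lower and no other of the 31, against 0.308% of all genes called lower and 0.578% called higher. Estimates were negative for 28 of 31 genes with a median of −0.56, beside −0.04 for all genes. Next by p were Npm1 at −1.23 (SE 0.51), Nob1 at −0.99 (SE 0.42) and Rrp9, a U3 small nucleolar RNP protein, at −0.77 (SE 0.33), with edgeR adjusted p of 0.445, 0.456 and 0.456. Myc was at −2.29 (SE 0.77, edgeR adjusted p 0.380).

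Set against all 9 non-MCL primary mice, MCL-like primaries had lower Noc4l, 1 of 31 genes called, against 2.68% of all genes called lower and 2.84% called higher. Its mean was 41 ± 10.4 CPM in the MCL-like mice (SD, n = 4) against 102 ± 32.1 CPM in the non-MCL mice (n = 9), at −1.22 (SE 0.26, edgeR adjusted p 0.0175). It was also the only one of the 31 with no overlap, against 1.94% of all genes lower and 2.68% higher without overlap. Fbl at −1.02 (SE 0.29), Rrs1 at −1.59 (SE 0.52) and Nhp2 at −0.95 (SE 0.33) had edgeR adjusted p of 0.0506, 0.0794 and 0.0948. Without the oTP tumours Noc4l was at −1.07 with an adjusted p of 0.0614, and its call was lost without MCL-like replicate 1, 3 or 4. Fbl was called as well without Ccnd2 non-MCL replicate 1, and Fbl and Rrs1 without Ccnd2 non-MCL replicate 2. This comparison shares mice with those above and is not separate evidence.

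Read against Myc, 6 of the 31 genes were higher in mice with more Myc. The slope, in log2 units of the gene per log2 unit of Myc over 13 primary mice, was called positive for 6 genes and negative for none, against 1.21% and 0.763% of all genes. Rrs1 had the steepest slope, at 0.67 (SE 0.09, edgeR adjusted p 0.0182). Npm1 followed at 0.55 (SE 0.12, adjusted p 0.0400 by edgeR). Nhp2 and Nip7 both had 0.39 (SE 0.08 each, edgeR adjusted p 0.0385 and 0.0400), Nob1 had 0.36 (SE 0.09, edgeR adjusted p 0.0490) and Fbl 0.32 (SE 0.07, edgeR adjusted p 0.0425). The called genes were spread over the roles, with a scaffold, a protein of each small nucleolar RNP class, a small subunit nuclease and a pair of large subunit factors. Slopes were positive for 30 of 31 genes, with a median of 0.18 beside 0.00 for all genes, and the exception was Nop56 at −0.06.

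Dkc1, Ddx21 and Polr1a had slopes of 0.11, 0.08 and 0.05 with SE of 0.16, 0.15 and 0.12. As correlations over the same 13 mice on log2 levels, Rrs1 gave r = 0.92 and rho = 0.87 (permutation p 2e-05 and 0.00024, adjusted over 12967 genes 0.0341 and 0.0444). Nhp2 gave r = 0.86 and rho = 0.87 (permutation p 0.00026 and 0.00021, adjusted 0.042 and 0.0444), and Nip7 gave r = 0.85 and rho = 0.88 (permutation p 0.00031 and 0.00016, adjusted 0.042 and 0.0444). Dkc1 stood closest to no correlation, at r = 0.00 and rho = 0.01 (permutation p 0.992 and 0.993). Nop56 was the lowest, at r = −0.14 and rho = −0.03 (permutation p 0.645 and 0.936). In all, 6 of the 31 genes passed by Pearson and 4 by Spearman, beside 247 and 80 of all genes.

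Without p53-only replicate 6 and Ccnd2 non-MCL replicate 2, the mice farthest from the median Myc level, no gene of the 31 passed, and Rrs1 had r = 0.85 and rho = 0.79 (permutation p 0.00152 and 0.00565, adjusted 0.251 and 0.278) over 11 mice. No other gene passed over these 11 mice either. With the 3 groups as terms none of the 31 was called, and 1 of all 12967 genes was. The slopes were then 0.45 for Rrs1, 0.46 for Npm1, 0.42 for Nob1, 0.35 for Nhp2, 0.35 for Nip7 and 0.25 for Fbl, each with an edgeR adjusted p of 0.773, so that of Nob1 was larger than without the terms and the others were smaller. Within the 6 p53-only mice the correlation of Rrs1 was r = 0.82 and rho = 0.20 (exact permutation p 0.128 and 0.714), and 28 of the 31 genes had a positive r, with a median of 0.36. The smallest p that 6 mice gave for any gene was 0.001 before adjustment over 12967 genes, so this subset is a description only. Leaving out 1 mouse at a time left 0 to 5 slopes called, with 0 without p53-only replicates 2 and 5, replicate 4 or replicate 6, Rrs1 alone without Ccnd2 non-MCL replicate 2 or 3 or MCL-like replicate 1 or 4, and 3 genes without Ccnd2 non-MCL replicate 1, MCL-like replicate 2 or 3 or p53-only replicate 3. Of all genes, the fits with 0 called 1 higher and 0 lower. Those with Rrs1 alone called 2 to 6 higher and 1 to 9 lower, and those with 3 called 69 to 133 higher and 47 to 77 lower.

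**Figure D4:**
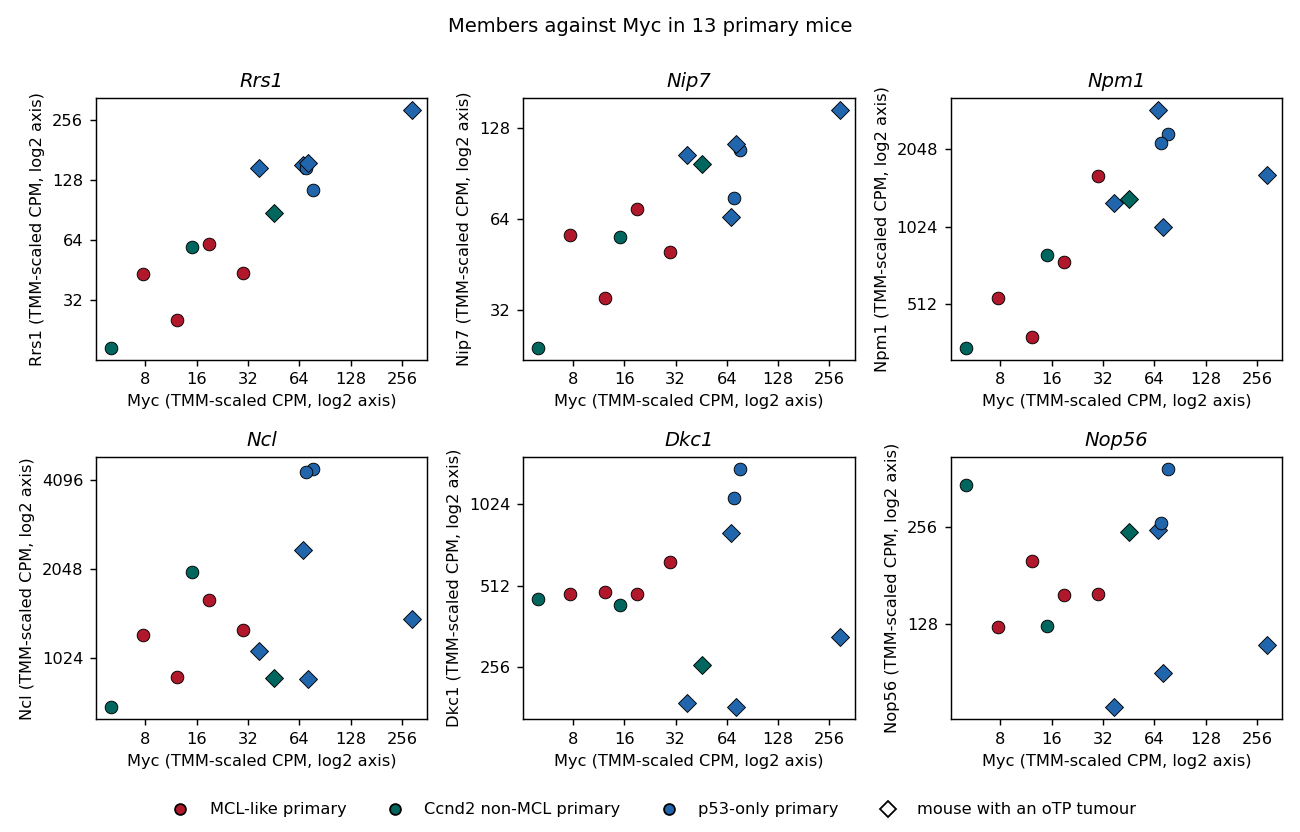
Level of 6 genes (TMM-scaled CPM, log2 axes) against Myc in 13 primary mice, coloured by group, with diamonds for mice with an oTP tumour. Rrs1, Nip7 and Npm1 lie high in mice with high Myc, at r = 0.92, 0.85 and 0.82, while Ncl, Dkc1 and Nop56 are low in several oTP mice and have r = 0.40, 0.00 and −0.14.

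The 8 mice without an oTP tumour were the MCL-like mice, Ccnd2 non-MCL replicates 1 and 2, and p53-only replicates 1 and 3. These p53-only mice had 76.7 and 70.3 TMM-scaled CPM of Myc, against 5.02 to 29.8 in the rest. In the 8 mice 30 of the 31 genes had a positive r with Myc, with a median of 0.73. Rrs1, Nhp2, Nip7 and Nob1 had r = 0.89, 0.86, 0.82 and 0.81 (exact permutation p 0.00484, 0.00699, 0.0127 and 0.0098) and rho = 0.86, 0.93, 0.81 and 0.88 (exact permutation p 0.0107, 0.00223, 0.0218 and 0.00724). Among genes with a low r over all 13 mice, Dkc1 had r = 0.89 with Myc (exact permutation p 0.00322), Ncl 0.90 (exact permutation p 0.00429) and Ddx21 0.88 (exact permutation p 0.00474), with adjusted p of 0.339, 0.354 and 0.354. Spearman rho for these was 0.69, 0.88 and 0.93 (exact permutation p 0.0694, 0.00724 and 0.00223). p53-only replicates 1 and 3 had 1378 and 1077 TMM-scaled CPM of Dkc1, against 436 to 626 in the rest. For Ncl they had 4465 and 4360, against 698 to 2005. For Ddx21 they had 698 and 984, with MCL-like replicate 3 between them at 906. The same p53-only mice had 114 and 148 of Rrs1, against 18.4 to 61.3 in the rest. For Nhp2 they had 215 and 162, against 49.1 to 110, and for Nip7 108 and 75.2, against 24 to 69.1. In the r of Dkc1, Ncl, Rrs1, Nhp2 and Nip7, Myc level and group therefore cannot be told apart. The difference between these 8 mice and all 13 was not tested. The slope fit without the oTP tumours also kept p53-only replicate 2, whose mouse is not among these 8. It called none of the 31 genes and 1 of all 13013 genes, with 0.67 for Rrs1 (edgeR adjusted p 0.197). None of the 31 correlations passed in these 8 mice, and neither did any other gene.

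Mycn gave no called slope among the 31 genes, against 0.0308% of all genes called higher and 0% lower. One mouse, Ccnd2 non-MCL replicate 1, carried most of the range of Mycn, so these slopes describe that mouse against the rest. Their median was −0.20, 28 of 31 were negative, and the lowest p belonged to Polr1a at −0.62 (SE 0.23, edgeR adjusted p 1). Summing Myc and Mycn gave 7 called genes, the same 6 and Pes1 at 0.30 (SE 0.08, edgeR adjusted p 0.0477), against 1.96% of all genes called higher and 1.12% lower. None of the 7 was called without the oTP tumours, with the prefix as a covariate, with groups as terms or without p53-only replicate 6, and Rrs1 alone was called without p53-only replicate 4, p53-only replicates 2 and 5, Ccnd2 non-MCL replicate 2 or MCL-like replicate 4. Where none was called, 1 or 2 of all genes were called higher and 0 lower. Where Rrs1 alone was called, 2 of all genes were higher and 0 to 6 lower. Without MCL-like replicate 1 or 2 the count was 3 or 4. Of the 4 members called on this sum that have a promoter window, 1 (Pes1) holds a CACGTG, and of the other 22 members with a window 3 do.

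Within the p53-only primaries the 31 genes fell into unlike patterns by tumour name. Dkc1 had 204, 452, 337 and 208 CPM in the oTP libraries (replicates 4 to 7), against 1326, 908 and 1014 CPM in the others (replicates 1 to 3). Ncl had 972, 1326, 1406 and 1198 CPM in the oTP libraries, against 4296, 2715 and 4107 CPM in the others. In 9 genes, Ncl, Mybbp1a, Ddx21, Nop56, Nop58, Dkc1, Wdr43, Wdr12 and Gnl3, all 4 oTP libraries were below all 3 others, against 12.4% of all genes. In 1, Rrs1, all 4 were above, at 175, 215, 294 and 164 CPM against 110, 111 and 139 CPM, beside 12.8% of all genes. The oTP libraries also held 446 to 8139 CPM of surrogate light chain genes, which mark early B cells, against 91.8 to 319 CPM in the others. Vpreb1 was at 5132, 458 and 2879 CPM in oTP replicates 4, 6 and 7, against 2.02 to 4.82 CPM in the others. In oTP replicate 5 Vpreb1 was at 5.45 and Igll1 at 3.06 CPM, and its sum was mostly Vpreb3, at 437 CPM. The part of these genes was not tested.

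The mouse with both kinds of library gave replicates 5 and 2, which are among the libraries just compared. For the genes without overlap, such as Dkc1, Nop58 and Rrs1, the order of this pair was therefore fixed and is no further evidence. The oTP library of this mouse, replicate 5, had 452 CPM of Dkc1 against 908 CPM in its spleen library, replicate 2. Nop58 was at 279 against 552 CPM and Rrs1 at 215 against 111 CPM. Across the 31 genes, 11 were higher in replicate 5, with a median log2 ratio of −0.17. These are 2 libraries of a mouse and allow no test.

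MCL-like transplants had higher levels than their primaries in 2 of 3 mice and not in the other, and none of the 31 genes was called. In the mouse of primary replicate 4 the summed level was 10477 and 10656 CPM in transplants against 5707 CPM in the primary, and in the mouse of replicate 2 it was 8016 CPM in the transplant against 4912 CPM in the primary. In the mouse of replicate 1 it was 3658 and 6263 CPM in transplants against 5497 CPM in the primary. On TMM-scaled levels, 28, 29 and 5 of the 31 genes were higher in the transplant in the mice of replicates 4, 2 and 1, with medians of 0.68, 0.53 and −0.20 on the log2 scale. Ncl gave log2 ratios of 2.25, 1.08 and −0.16 and Rrs1 of 1.89, 0.63 and −0.48 in these mice.

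**Figure D5:**
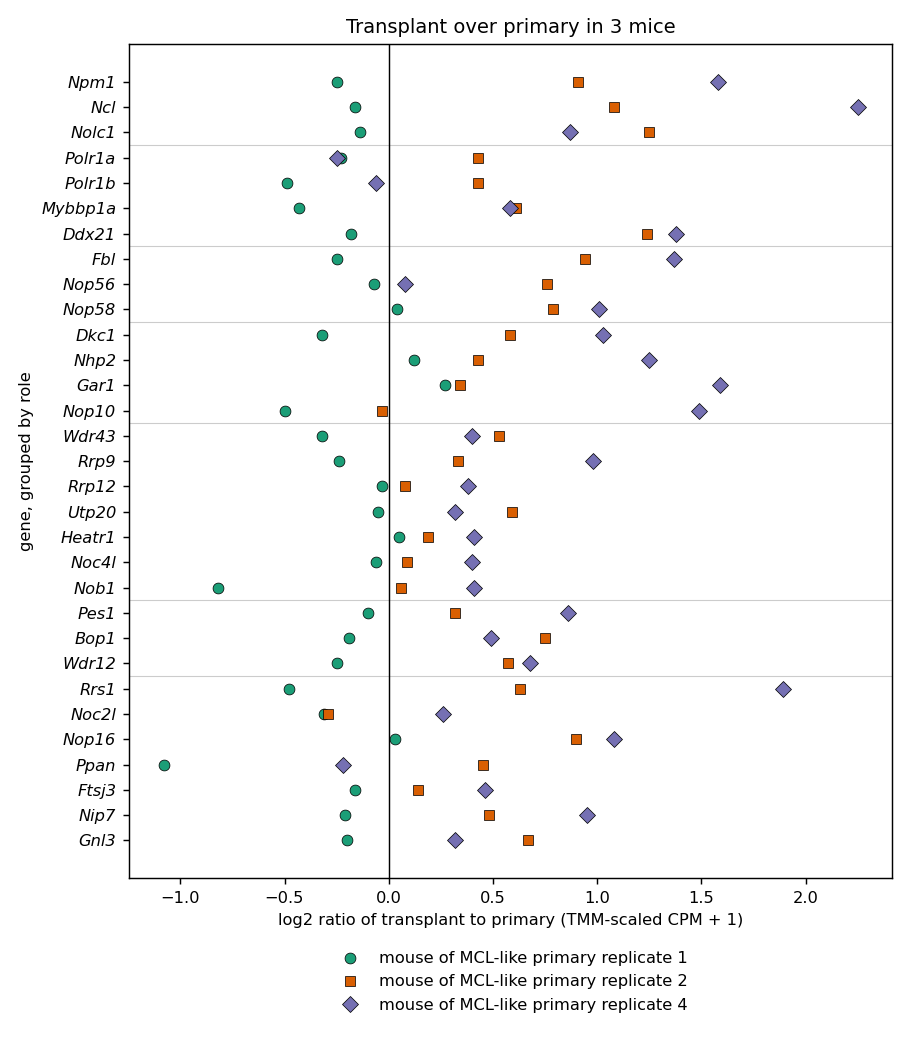
Log2 ratio of transplant to primary, on TMM-scaled CPM plus 1, of each of the 31 genes in 3 mice with MCL-like tumours, by role. Most points of the mice of replicates 2 and 4 lie right of 0, with medians of 0.53 and 0.68, and most of the mouse of replicate 1 lie left of it, with a median of −0.20.

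By edgeR with mouse as a block, 0 of 31 genes were called, against 0% of all 12020 genes in either direction. None of the 31 had an unadjusted p under 0.05, beside 656 of all genes, and DESeq2 called none of the 31, against 0.0499% of all genes called higher and 0.216% called lower. The lowest p values belonged to Nop16 at 0.68 (SE 0.32), Gar1 at 0.72 (SE 0.35), Ddx21 at 0.82 (SE 0.43) and Nolc1 at 0.66 (SE 0.35), all with an edgeR adjusted p of 0.82. The median of the 31 was 0.33 with 26 positive, beside 0.01 for all genes. Nop58, Nhp2, Gar1, Heatr1 and Nop16 were higher in all 3 mice, 5 of 31 against 16.1% of all genes. Myc was at 0.49 (SE 0.45, edgeR adjusted p 0.85), and in the mouse of replicate 2 it was 6.29 CPM in the transplant against 6.96 CPM in the primary.

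Erythroid transcripts were lower in each transplant library whose summed level was above that of its primary, and higher in the one below it. They summed to 971 and 1616 CPM in transplants against 23641 CPM in the primary of replicate 4, to 279 against 111581 CPM for replicate 2, and to 119835 and 10905 against 50395 CPM for replicate 1. The library with the most erythroid transcripts, transplant replicate 1, was thus also the lowest for the 31 genes. In its partner from the same primary, transplant replicate 2, all 31 genes were higher than in replicate 1, with a median log2 ratio of 0.70, and 10 of 31 exceeded the primary after TMM scaling. T cell markers had negative estimates for all 10 genes in transplants, none called, and summed to 16.9 to 67.9 CPM in MCL-like transplants against 85 to 482 CPM in MCL-like primaries. The part of erythroid and T cells in the members' values was not tested. The other MCL-like transplant, replicate 5, had 8939 CPM and no primary to set it against. Beside the 4 MCL-like transplant mice, at 8080 ± 2429 CPM (SD), the single Ccnd2 non-MCL transplant mouse had 9768 CPM, which allows no test.

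A further 111 genes of ribosome biogenesis that are not members were read from the same fits. In MCL-like against p53-only primaries 8 of them were called lower and none higher, against 2.86% and 2.95% of all genes. Estimates were negative for 95, and their median was −0.45, beside −0.11 for all genes. The lowest p values belonged to Nop9 at −1.33 (SE 0.29), Lyar at −1.66 (SE 0.40), Rrn3, a polymerase I initiation factor, at −0.95 (SE 0.25) and Snu13, a box C/D protein, at −1.27 (SE 0.33), with edgeR adjusted p of 0.0223, 0.0289, 0.0376 and 0.0405. On Myc, 5 of the 111 had called positive slopes and none negative, against 1.21% and 0.763% of all genes. Slopes were positive for 98 of them, led by Rsl1d1 at 0.57 (SE 0.09, edgeR adjusted p 0.0238) and Ubtf, the polymerase I activator UBF, at 0.41 (SE 0.08, edgeR adjusted p 0.0385). In the transplant pairs 93 of 111 had positive estimates, with a median of 0.34 beside 0.01 for all genes, and none was called, against 0% of all genes. Of 20 other Myc target genes, 5 were called lower in MCL-like than in p53-only primaries, against 2.86% of all genes. In the same list 3 had called positive slopes on Myc, against 1.21% of all genes.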

How the data were processed

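The deposited table holds raw counts per gene for 22 libraries made with a QuantSeq 3' mRNA-seq reverse kit, per the labels' protocols. FastQC, STAR and the GRCm38 build are named in the submitters' processing notes, and the counting tool, its annotation and its strand setting were not given in the sources used here. Symbols came from GENCODE M21, which matched 52489 of 52636 identifiers. Counts of libraries from the same mouse were summed, except in the fits with separate libraries and with the oTP prefix as a covariate. Fits without the oTP tumours kept the spleen library of the p53-only mouse that had both kinds. Levels are CPM over all genes. Tests used edgeR 4.0.16 in R 4.3.3 (TMM scaling, a low-count filter, quasi-likelihood F test, Benjamini-Hochberg adjustment over all tested genes), and DESeq2 1.42.0 and limma 3.58.1 were alternatives. An SE is the estimate divided by the square root of F. The Myc level was log2 of TMM-scaled CPM plus 1, and correlations used 100000 permutations, or all of them for 6 and 8 mice. Transplants were paired by mouse, as the labels give it, and deviations of same-mouse libraries correlated at 0.231, 0.243 and 0.359. Scripts were tested on simulated data. Of 231 library pairs none agreed within counting noise. The members and lists were chosen with earlier results of these data known. Per comparison, up to 10 called members with the lowest p are named, or the 4 with the lowest p where fewer than 4 were called, and up to 4 genes of another list. Myc, Mycn and Mycl are always named. The slopes of Dkc1, Ddx21 and Polr1a and the correlations outside this rule were chosen after their values were seen.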

Additional observations from a re-analysis of the deposited data

Results flagged for a closer look

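Of 99 sets of 4 to 6 mice examined, 7 had a mouse whose gap to its nearest neighbour was large for the range of its group (Dixon's test), and chance gives about 1 in 20. In MCL-like primaries, Npm1 was at 1527 CPM in replicate 3, with the next mouse at 621 CPM, and Pes1 was at 101 CPM in the same replicate, with the next at 61.3 CPM. Rrp9 was at 45.4 CPM in MCL-like primary replicate 2, with the next at 31.7 CPM. In p53-only replicate 6, Myc was at 299 CPM with the next mouse at 80.8 CPM, Rrs1 at 294 CPM with the next at 175 CPM, and Fbl at 129 CPM with the next at 86.8 CPM. Heatr1 was low in the mouse of MCL-like transplant replicates 1 and 2, at 41.7 CPM, with the next mouse at 75.2 CPM.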

How the results depend on the processing

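Of 708 values of named members under alternatives, 510 kept their direction and side of the threshold, 184 lost the call, 13 gained it and 1 reversed, Rrp9 on Mycn, at 0.17 without the 2 mice farthest from the median Mycn level. That setting also moved the median slope on Mycn to −0.94. DESeq2 called 1 of the 31 genes lower in MCL-like against Ccnd2 non-MCL primaries and 1 in Ccnd2 non-MCL against p53-only primaries. For MCL-like against p53-only primaries the count lower was 5 with library size only, 1 with no low-count filter, 6 by DESeq2, 5 with libraries of the shared mouse separate and 0 without oTP tumours. Of all genes 371 were lower in the main fit, and 475, 232, 993, 410 and 51 under these settings in the same order. Against all non-MCL primaries the count of the 31 genes was 2 with library size only, 3 by DESeq2, 2 with separate libraries, 0 without oTP tumours and 0 with the prefix as a covariate. There, 348 of all genes were lower in the main fit, and 439, 1017, 319, 72 and 87 under these settings. Calls among the 31 genes on Myc and on summed Myc and Mycn were 0 without oTP tumours, with the prefix as a covariate, with groups as terms and without the 2 farthest mice. Of all genes these fits called 1 or 2 higher and 0 or 1 lower, and 0 correlations of any gene passed without those mice. Leaving out 1 mouse at a time gave 0 to 4 genes called lower against p53-only primaries, 0 to 3 against all non-MCL primaries, 0 to 5 on Myc and 0 to 6 on summed Myc and Mycn, and the median of transplant pairs ran from 0.11 to 0.61. Of all genes, 55 to 608 and 45 to 522 were then lower in these group comparisons, and 1 to 238 and 2 to 289 had called positive slopes. Without the replicate block the transplant pairs also gave 0 calls, with a median of 0.34, and pairing changed no call. Scaling by library size only shifted the median of all genes by −0.12 for MCL-like against Ccnd2 non-MCL primaries and by −0.11 for transplant pairs, where the medians of the 31 genes became −0.26 and 0.22. Over all genes, MCL-like against p53-only primaries gave 382 higher and 371 lower, against 404 and 259 with RLE size factors, 339 and 475 with library size only, 517 and 256 by limma-voom, 834 and 993 by DESeq2 and 65 and 51 without oTP tumours. MCL-like against Ccnd2 non-MCL primaries gave 8 higher and 32 lower, against 295 and 540 by DESeq2, 226 and 326 without oTP tumours, 4 and 18 with RLE size factors, 6 and 11 by limma-voom and 0 and 0 without MCL-like replicate 3. Ccnd2 non-MCL against p53-only primaries gave 0 and 0, against 75 and 40 by DESeq2 and 89 and 27 without oTP tumours. The cause was not tested.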
